A study of Mus musculus with 16 samples.

Results

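The comparison described here set 4 hippocampal RNA-seq libraries from PS19 tau transgenic mice against 4 from wild-type mice, 8 of the 16 libraries in the series, all of them taken from the table that holds the 16. They were chosen by their genotype labels and not by any measured value. PS19 mice carry human tau with the P301S mutation (1N4R isoform) under the prion protein promoter, so the transgene follows that promoter and not the one of mouse Mapt. Both groups had an intact Ch25h gene. The other 8 libraries came from Ch25h knockout mice without the transgene (4) and with it (4), and they enter below only where the tau effect with Ch25h is set beside the tau effect without it. All animals were female, their age is labelled 40 weeks, and they were perfused with PBS. The right hippocampus was flash frozen and amplified from its poly(A) RNA with oligo-dT priming. The labels do not say that replicate libraries came from separate mice, so the p-values measure the spread between libraries, which may be technical.

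Tau is a microtubule-binding protein of axons, and in PS19 mice the mutant human protein aggregates in neurons of the hippocampus, where reactive microglia and astrocytes and loss of neurons follow with age. Microglia sense danger signals through Toll-like and Fc receptors, present antigen through MHC molecules and clear debris through complement, phagocytosis and lysosomes. Ch25h encodes cholesterol 25-hydroxylase, an interferon-inducible enzyme of myeloid cells. Its oxysterol product holds back the processing of SREBP2, the transcription factor of the cholesterol synthesis genes, and is also a ligand of the LXR receptors, which drive cholesterol efflux genes.

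The 4 wild-type libraries held between 28878646 and 34348284 reads assigned to genes, and the 4 tau transgenic libraries between 26247317 and 32295230. Mitochondrially encoded genes took 8.07% to 9.79% of reads in these 8 libraries. Defining markers of neurons, astrocytes and microglia were present throughout: the 5 neuronal markers (Rbfox3, Snap25, Syt1, Slc17a7, Gad1) summed to 5390 to 6150 CPM in the wild-type and 3560 to 5220 CPM in the transgenic libraries, where CPM are read counts scaled to a common library size with TMM factors. The 5 astrocyte markers (Aldh1l1, Slc1a3, Aqp4, Gja1, Gfap) summed to 2170 to 2740 CPM in the wild-type and 7490 to 10900 CPM in the transgenic libraries, or to 1680 to 1950 and 2590 to 3090 CPM without Gfap, and 3 of the 5 passed the test (median 0.75). The 6 microglial markers summed to 392 to 538 and 1110 to 1440 CPM. Choroid plexus tissue differed between libraries of both groups: its 14 markers summed to 11500 CPM in wild-type replicate 1 and 11600 CPM in transgenic replicate 4, against 155 to 796 CPM in the other 6. In bulk tissue, fewer cells of a type and less RNA per cell cannot be told apart, and the same holds for more.

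Ch25h itself (chr19:34473778-34475164, GRCm38) was at 0.581, 0.741, 0.72 and 1.41 CPM in the wild-type libraries and at 9.55, 5.46, 4.93 and 4.15 CPM in the transgenic ones. The transgenic libraries all lay above the wild-type ones, and the rise was 2.80 ± 0.42 on the log2 scale (± SE, n = 4 and 4; adjusted p = 0.000142, edgeR). In the 8 Ch25h knockout libraries it lay between 0 and 0.0819 CPM, which fits their labels. Mapt, the mouse tau gene, was at 347 ± 14.5 CPM (SD, n = 4) in the wild-type libraries and at 712, 869, 665 and 830 CPM in the transgenic ones, a rise of 1.15 ± 0.11 (adjusted p = 1.92e-06). Prnp, the prion protein gene, was at 846 ± 85.6 CPM and at 1840, 2050, 1590 and 2160 CPM, a rise of 1.17 ± 0.13 (adjusted p = 7.12e-06). The human tau sequence resembles mouse Mapt and the transgene carries prion promoter sequence, so the transgenic libraries can hold transgene reads at both mouse genes, and their share was not tested.

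Of 18565 genes tested, 4490 (24.2%) passed an adjusted p of 0.05 in edgeR's quasi-likelihood test. In the tau transgenic libraries 2417 genes (13%) rose and 2073 (11.2%) fell, and the median of all tested genes was -0.01 on the log2 scale. The 2 directions differed in size: 251 genes rose at least 8-fold, whereas 13 fell at least 8-fold. At 2-fold or more, 1388 rose and 187 fell. Without transgenic replicate 2 the total was 2934 and the falls were 1162, and without transgenic replicate 3 the falls were 1187. Leaving out both choroid-rich libraries gave 2696 calls, of which 882 were falls.

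**Figure D1:**
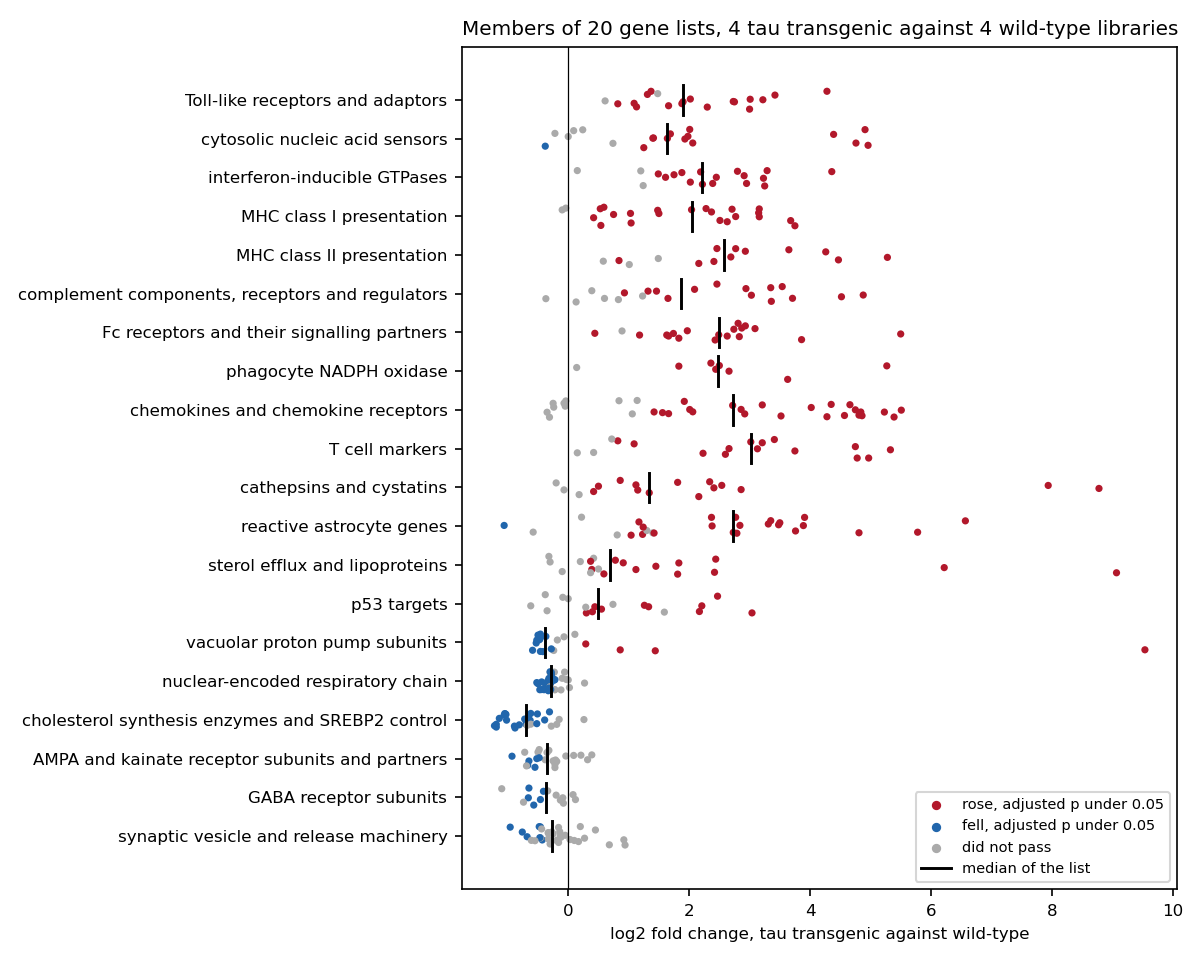
Each point is 1 tested member of 1 of 20 gene lists, placed by its log2 fold change between the tau transgenic and wild-type libraries (n = 4 and 4), in red or blue where it rose or fell at an adjusted p under 0.05 in edgeR and in grey otherwise, with a black bar at the list's median. Most members of the immune, cathepsin and reactive astrocyte lists lie to the right of 0, those of the cholesterol list to its left, and the neuronal lists close to 0.

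The 10 largest rises by the naming rule, which admits only genes whose groups did not overlap and leaves out genes annotated as pseudogenes, were of Itgax, Cst7, Gbp2b, Lcn2, Hcar2, Pdcd1, Lilrb4a, Timp1, Ccl2 and Cd22. Clec7a, which encodes the receptor Dectin-1 and which the annotation calls a polymorphic pseudogene, rose by 7.47 ± 0.73 and would have ranked among them. Itgax, which encodes the integrin CD11c, was at 0.0323, 0.208, 0.108 and 0 CPM in the wild-type libraries and at 39.8, 24.3, 23.8 and 22 CPM in the transgenic ones, a log2 rise of 8.18 ± 0.89 (adjusted p = 6.91e-06). Cst7, a cysteine protease inhibitor of reactive microglia, was at 0.176 to 0.432 CPM in the wild-type libraries and at 89.0, 57.4, 58.4 and 76.5 CPM in the transgenic ones (7.94 ± 0.88, adjusted p = 7.79e-06). Gbp2b, an interferon-inducible GTPase, had 0 reads in the 4 wild-type libraries and 2286 in the 4 transgenic ones (20.3, 22.5, 17.6 and 15.1 CPM), at least 769-fold higher against a floor of 3 reads over the group. In the Ch25h knockout libraries Gbp2b also had 0 reads without the transgene, and 61, 103, 41 and 35 with it. Whether these reads reflect interferon induction was not tested. Reads of Itgax, Cst7 and Gbp2b were close to absent in the wild-type hippocampus.

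Receptors and secreted proteins were among the same genes. Pdcd1, which encodes the checkpoint receptor PD-1, was at 0.0706 to 0.267 CPM in the wild-type libraries and at 15, 11.7, 11.5 and 12.3 CPM in the transgenic ones (6.03 ± 0.65). Cd22, a sialic acid receptor of microglia and B cells, was at 0.141 to 0.356 CPM and at 14.8, 9.78, 12.6 and 8.09 CPM (5.50 ± 0.54). Ccl2, a monocyte-attracting chemokine, was at 0.226 to 0.424 CPM and at 19.7, 13.8, 14.4 and 9.21 CPM (5.51 ± 0.49). Lcn2, an iron-siderophore carrier made by reactive astrocytes, was at 30.7, 18, 23.2 and 4.46 CPM in the transgenic libraries (6.57 ± 0.94), and transgenic replicate 5 was the lowest of the 4. Hcar2, Lilrb4a and Timp1, which encode a niacin receptor, an inhibitory receptor and a metalloproteinase inhibitor, rose by 6.07 ± 0.88, 5.84 ± 0.74 and 5.78 ± 0.79.

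Pattern recognition receptors rose as a group. Of 19 tested Toll-like receptor and adaptor genes, 17 rose and 0 fell (13% of all genes rose), with a median of 1.90. Tlr2, a receptor of lipoproteins, was at 1.45, 0.919, 1.08 and 0.494 CPM in the wild-type libraries and at 18, 18.8, 22.1 and 18.2 CPM in the transgenic ones (4.28 ± 0.48, adjusted p = 8.77e-06). Ly86, the partner of the receptor Cd180, was at 25.9 ± 6.33 CPM and 209 ± 36.6 CPM (3.01 ± 0.26). The 4 transgenic libraries lay within a narrow range for Tlr2 and above all wild-type libraries for both. Unc93b1, the chaperone of the endosomal RNA receptor Tlr7, rose by 2.75 ± 0.21 and, like Ly86, followed from the naming rule. Tlr2 was picked after its values were seen. So were Tlr7 (2.73 ± 0.30), the endotoxin co-receptor Cd14 (3.0 ± 0.31) and the adaptor Myd88 (1.31 ± 0.19).

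Of 19 genes for sensors of cytosolic nucleic acid and their partners, 13 rose and 1 fell, with a median of 1.64. The fall was of Adar, an RNA-editing enzyme, at -0.38, and it did not hold under 16 of the 26 alternatives tried. Ddx58, which encodes the viral RNA sensor RIG-I, was at 3.42, 5.43, 4.93 and 3.71 CPM in the wild-type libraries and at 19.9, 24.1, 14.9 and 14.3 CPM in the transgenic ones (2.06 ± 0.22, adjusted p = 6.92e-06). Zbp1, a sensor of Z-form nucleic acid, was at 0.343 ± 0.215 CPM and at 6.5, 12.1, 4.83 and 6.06 CPM (4.39 ± 0.50). Ifi204, a DNA sensor of a family whose members share sequence, was at 0.569 ± 0.361 and 15.7 ± 4.27 CPM (4.76 ± 0.68). Each of these had no overlap between groups.

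Downstream of these sensors, a list of interferon regulatory factors, STATs and SOCS genes, with interferon receptors and Jak kinases, was higher. Of its 25 tested members, 15 rose and 0 fell (median 0.91). Irf8, a transcription factor of myeloid cells, was at 3.71, 5.04, 4.64 and 4.62 CPM in the wild-type libraries and at 67.9, 55.1, 49.8 and 52.4 CPM in the transgenic ones (3.64 ± 0.22, adjusted p = 7.45e-08). Stat3, the factor downstream of cytokine receptors of the interleukin-6 family, was at 29.5 ± 5.93 and 80.9 ± 9.87 CPM (1.45 ± 0.14). Irf7, the amplifier of type I interferon, was at 5.07, 5.07, 2.12 and 1.87 CPM and at 33.9, 50.4, 22.3 and 36.8 CPM (3.33 ± 0.44), and was picked after its values were seen. Among the transgenic libraries replicate 3 was highest and replicate 4 lowest for Irf7.

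The interferon-inducible GTPases, which restrict intracellular pathogens, rose nearly as a whole: 16 of 19 tested rose and 0 fell, with a median of 2.22. Gbp3 was at 10, 13.5, 8.86 and 5.08 CPM in the wild-type libraries and at 77.7, 97.4, 79.4 and 102 CPM in the transgenic ones (3.25 ± 0.30, adjusted p = 2.07e-06). Irgm1 was at 23.2, 20.2, 21.0 and 18.8 CPM and at 124, 122, 83.3 and 124 CPM (2.45 ± 0.22, adjusted p = 1.64e-06). Groups did not overlap for 15 of the 19, and over all genes tested 13.3% lay higher and 11.8% lower in every transgenic library than in any wild-type one. Genes of the Gbp and Irg clusters resemble each other, so the split of reads between copies is uncertain.

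Proximal promoters of these genes are shown because the members moved together. They come from RefSeq (GRCm38.p6) windows of 300 bases, from 250 bases before to 50 bases after the start, which matched 12768 of the tested genes. Each was searched on both strands for the core of the interferon-stimulated response element, GAAANNGAA. Stretches around the matches are printed 5′ to 3′ on the gene's strand with the match in capitals, or its reverse complement where the match is on the other strand, and overlapping matches run together. Gbp3, Irgm1 and Ddx58 follow from the naming rule, and the others were picked after values were seen.
Ddx58, chr4:40239796-40239882, minus strand: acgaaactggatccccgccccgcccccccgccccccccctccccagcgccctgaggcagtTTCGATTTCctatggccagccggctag
Gbp2, chr3:142620590-142620628, plus strand: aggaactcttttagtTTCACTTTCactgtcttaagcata
Gbp3, chr3:142559940-142560073, plus strand: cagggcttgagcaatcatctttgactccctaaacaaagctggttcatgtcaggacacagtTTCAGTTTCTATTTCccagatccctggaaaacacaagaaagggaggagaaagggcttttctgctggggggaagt
Gbp5, chr3:142496755-142496793, plus strand: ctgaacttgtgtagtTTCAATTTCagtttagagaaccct
Gbp7, chr3:142530269-142530307, plus strand: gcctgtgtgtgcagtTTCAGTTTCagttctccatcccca
Irgm1, chr11:48871391-48871510, minus strand: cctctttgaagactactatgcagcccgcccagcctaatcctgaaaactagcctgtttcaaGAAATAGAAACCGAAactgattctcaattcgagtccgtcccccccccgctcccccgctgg
Irgm2, chr11:58214898-58214936, plus strand: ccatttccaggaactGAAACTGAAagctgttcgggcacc
Igtp, chr11:58199507-58199545, plus strand: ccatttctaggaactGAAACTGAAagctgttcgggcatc

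The core was in 9 of the 11 GTPase genes with a promoter in the table and in 7 of 15 nucleic acid sensor genes. Of other lists with many rises, it was in 5 of 20 MHC class I, 3 of 13 Toll-like receptor and 6 of 26 chemokine genes. It was also in 5 of 25 reactive astrocyte, 2 of 3 NADPH oxidase, 2 of 11 cathepsin and 2 of 13 complement genes. Shares were lower in 3 of 22 genes of the interferon regulatory factor, STAT and SOCS list, 1 of 16 Fc receptor genes and 1 of 15 interleukin-1 family genes. No match was in the 9 MHC class II and 8 T cell genes. Outside these lists, 5 of 15 immediate early genes and 2 of 5 erythrocyte markers held it. It was in 2812 of all 32851 promoters (8.56%) and in 8.74% of those of tested genes. Among genes that rose the share was 12%, among genes that rose at least 8-fold 24.9% (46 of 185), and among genes that fell 9.36%. The core of the site of PU.1, the myeloid factor encoded by Spi1, was searched as GAGGAAGT on both strands. It was in 10.8% of promoters of genes that rose at least 8-fold and in 3.42% of those of all tested genes. These shares describe letters in the windows and not binding.

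Antigen presentation genes rose in both classes. Of 23 tested genes of MHC class I presentation 21 rose and 0 fell (median 2.04), and of 14 genes of class II presentation 11 rose and 0 fell (median 2.57). B2m, the class I light chain, was at 124, 194, 163 and 106 CPM in the wild-type libraries and at 860, 1000, 704 and 770 CPM in the transgenic ones (2.51 ± 0.26, adjusted p = 4.72e-06). H2-D1, a class I heavy chain whose relatives share sequence, was at 61.8, 148, 95.1 and 59.1 CPM and at 887, 914, 681 and 781 CPM (3.16 ± 0.31). Cd74, the class II invariant chain, was at 27.5, 20.4, 13.5 and 9.53 CPM and at 1030, 457, 558 and 720 CPM (5.28 ± 0.67, adjusted p = 2.91e-05). All 3 had no overlap between the groups. The peptide transporter Tap1 (2.63 ± 0.27), the immunoproteasome subunit Psmb8 (2.77 ± 0.24) and the class II chain H2-Ab1 (4.47 ± 0.52) rose as well.

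Complement and Fc receptor genes rose together. Of 20 tested complement genes 14 rose and 0 fell (median 1.87). C1qa, a chain of the first complement component made by microglia, was at 18.6, 28.0, 29.9 and 21.6 CPM in the wild-type libraries and at 426, 296, 294 and 270 CPM in the transgenic ones (3.71 ± 0.20, adjusted p = 2.02e-08). C3, the central component, was at 1.10, 3.65, 2.77 and 0.282 CPM and at 82.0, 77.8, 63.8 and 7.99 CPM (4.88 ± 0.83, adjusted p = 0.00048), with transgenic replicate 5 far below the other 3. Of 19 genes of Fc receptors and their signalling partners 18 rose and 0 fell (median 2.49). The inhibitory receptor Fcgr2b was at 3.78, 4.12, 3.38 and 1.91 CPM and at 59.7, 44.6, 48.6 and 39.3 CPM (3.86 ± 0.40). Trem2, a lipid receptor of microglia, and its signalling adaptor Tyrobp rose by 2.87 ± 0.26 and 2.93 ± 0.26, and the lipid phosphatase Inpp5d rose by 1.66 ± 0.16.

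Effector genes of phagocytes followed. Of 8 tested genes of the NADPH oxidase, which makes superoxide, 7 rose and 0 fell (median 2.47). Cybb, the catalytic subunit, was at 0.872, 1.51, 0.756 and 0.953 CPM in the wild-type libraries and at 50.3, 41.4, 37.3 and 30.5 CPM in the transgenic ones (5.27 ± 0.52, adjusted p = 3.44e-06). Hvcn1, the proton channel that sustains the oxidase, was at 2.22 ± 0.695 and 27.6 ± 2.89 CPM (3.63 ± 0.26, adjusted p = 2.63e-07). Of 16 genes of the interleukin-1 family and the inflammasome 10 rose and 0 fell (median 1.67). Casp4, an inflammatory caspase, was at 0.393 ± 0.240 and 4.37 ± 0.652 CPM (3.47 ± 0.41), and Pycard, the inflammasome adaptor, at 5.25 ± 0.938 and 30.2 ± 6.01 CPM (2.52 ± 0.25). The cytokines were low: Il1a and Il1b reached 5.41 ± 0.719 and 1.92 ± 0.208 CPM in the transgenic libraries, rises of 2.29 ± 0.33 and 2.45 ± 0.40. Il33, an alarmin of oligodendrocytes and astrocytes, rose by 1.06 ± 0.24 from a much higher level, and its groups overlapped (128 to 265 CPM and 257 to 511 CPM).

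Of 33 tested chemokine and chemokine receptor genes 23 rose and 0 fell (median 2.72). Ccl6, a chemokine of myeloid cells, was at 4.23, 5.69, 7.31 and 3.95 CPM in the wild-type libraries and at 167, 73.6, 78.3 and 111 CPM in the transgenic ones (4.35 ± 0.45, adjusted p = 4.53e-06). The T cell attractant Cxcl10 was at 2.94, 0.712, 0.72 and 0.812 CPM and at 49.7, 43.9, 25.2 and 27.3 CPM (4.81 ± 0.72). The B cell attractant Cxcl13 was at 0.337 ± 0.288 CPM and at 8.47, 29.0, 7.10 and 8.15 CPM (5.23 ± 0.82), with transgenic replicate 3 highest. Both were picked after their values were seen, and their transgenic libraries lay above all wild-type ones.

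T cell markers rose from low levels: 14 of 17 tested rose and 0 fell (median 3.02). With a stricter filter, which takes genes of low count out of the test, 9 rose. Cd3g, a chain of the T cell receptor complex, was at 0.0297 to 0.141 CPM in the wild-type libraries and at 1.59, 3.81, 1.15 and 1.34 CPM in the transgenic ones (4.78 ± 0.87, adjusted p = 0.00088). Cd8b1 was at 0.174 ± 0.106 and 1.89 ± 0.451 CPM (3.41 ± 0.74, adjusted p = 0.00318). Trbc1, a constant segment of the receptor, had 2 reads in the 4 wild-type libraries and 103 in the transgenic ones, a ratio of 52.0 with a counting interval of 14 to 435. Cd4 was at 0.301 ± 0.215 and 0.335 ± 0.0995 CPM, with overlapping groups (0.15 ± 0.59, adjusted p = 0.892). The summed T cell list reached 41.3 to 88.3 CPM in the transgenic and 6.62 to 9.08 CPM in the wild-type libraries, highest in transgenic replicate 3, and that sum includes Ccl5, which other cells also express. Of 13 tested markers of border macrophages and monocytes 4 rose and 0 fell, 2 of them without transgenic replicate 2 or with the stricter filter. S100a4, a calcium-binding protein of migrating leukocytes, rose by 2.75 ± 0.41 to 6.14 ± 2.52 CPM.

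**Figure D2:**
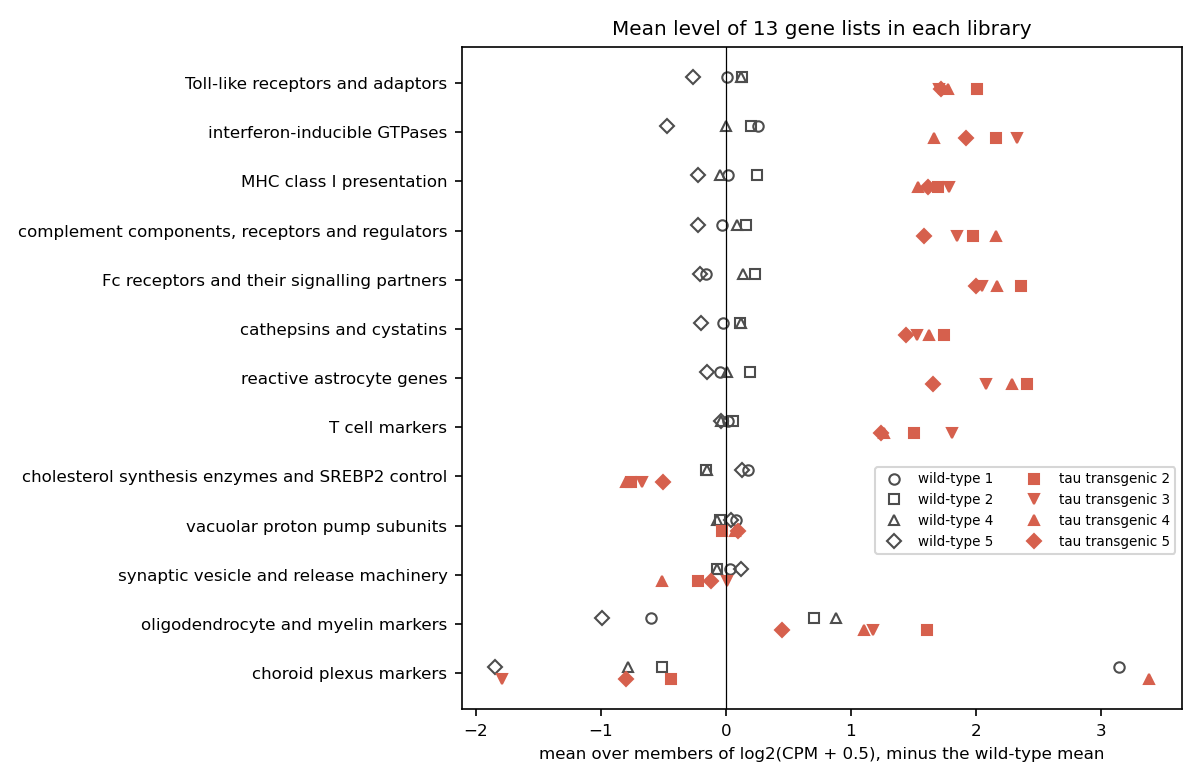
The horizontal axis gives the mean of log2(CPM + 0.5) over the tested members of each list in 1 library, minus the mean of the 4 wild-type libraries, with open symbols for wild-type and filled symbols for tau transgenic libraries. The groups are apart for the immune, cathepsin, reactive astrocyte, T cell and cholesterol lists, whereas wild-type replicate 1 and transgenic replicate 4 stand apart from the other 6 in choroid plexus markers.

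The libraries within a group were compared over the 13 lists with at least 10 rises and a median of at least 1 (immune, cathepsin, reactive astrocyte and T cell lists), which were chosen on these values. Among the transgenic libraries, replicate 2 had the highest mean level in 7 of the 13 lists and replicate 5 the lowest in 8. Among the wild-type libraries, replicate 2 was highest in 9 and replicate 5 lowest in 11. The plot of list levels by library shows these offsets. The microglial marker sum, 392 to 538 and 1110 to 1440 CPM, and the astrocyte marker sum moved with these lists, and their part in the rises was not tested.

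Genes that make and maintain microglia were higher. Of 23 tested growth factors, receptors and transcription factors of microglia 16 rose and 0 fell (median 1.71). Spi1, which encodes PU.1, was at 0.71 ± 0.235 and 9.74 ± 2.72 CPM (3.77 ± 0.33), and Csf1r, the receptor on which microglia depend, was at 69.1 ± 9.6 and 228 ± 22.5 CPM (1.72 ± 0.15). Its ligand Csf1 rose by 1.98 ± 0.20, while the other ligand, Il34, was at -0.44 ± 0.17 with overlapping groups (adjusted p = 0.0787). Of the 6 microglial markers 5 rose. The homeostatic receptor P2ry12 was the exception, at 113 ± 14.3 and 101 ± 9.05 CPM (-0.16 ± 0.13, adjusted p = 0.415), while Tmem119 and Aif1 rose by 0.82 ± 0.16 and 2.5 ± 0.22.

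Lysosomal proteases rose, but subunits of the proton pump that acidifies lysosomes and synaptic vesicles split. Of 17 tested cathepsins and cystatins 14 rose and 0 fell (median 1.34). Ctsd, the main lysosomal aspartic protease, was at 699, 600, 555 and 498 CPM in the wild-type libraries and at 3010, 2260, 2880 and 2320 CPM in the transgenic ones (2.16 ± 0.20, adjusted p = 2.42e-06). Ctss, a cysteine protease of microglia, was at 151 ± 39.8 and 1100 ± 110 CPM (2.86 ± 0.27). Ctse, an endosomal protease, had 0 reads in the wild-type and 241 in the transgenic libraries, at least 81.1-fold higher.

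Of the 20 pump subunits and accessory genes, 12 fell and 4 rose, with a median of -0.39. Atp6v0d2, a subunit restricted to osteoclasts and macrophages, had 1 read in the 4 wild-type libraries and 14.6, 7.33, 13.4 and 2.69 CPM in the transgenic ones (1165 reads), a ratio of 1180 with a counting interval of 211 to 46500. Tcirg1, the a3 subunit of lysosomal pumps, was at 5.42, 7.36, 5.0 and 2.93 CPM and at 17.5, 13.3, 12.1 and 13.5 CPM (1.44 ± 0.22, adjusted p = 0.000148). Atp6v1a, the catalytic subunit used in all cells, was at 1100, 916, 915 and 1170 CPM and at 556, 635, 659 and 882 CPM (-0.59 ± 0.14, adjusted p = 0.00535), without overlap. The falls were small and less stable than the rises: 6 members fell without transgenic replicate 3, 7 without transgenic replicate 2, wild-type replicate 1 or wild-type replicate 5, and 2 without both choroid-rich libraries, where Atp6v1a had an adjusted p of 0.0613. With the 8 libraries fitted alone and the replicate block, which pairs libraries of the same number, 5 fell. Wild-type replicate 1 and transgenic replicate 3 have no partner, so that fit compares replicates 2, 4 and 5 only. Neuronal markers were lower in the same transgenic libraries (sums above), and their part in these falls was not tested.

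**Figure D3:**
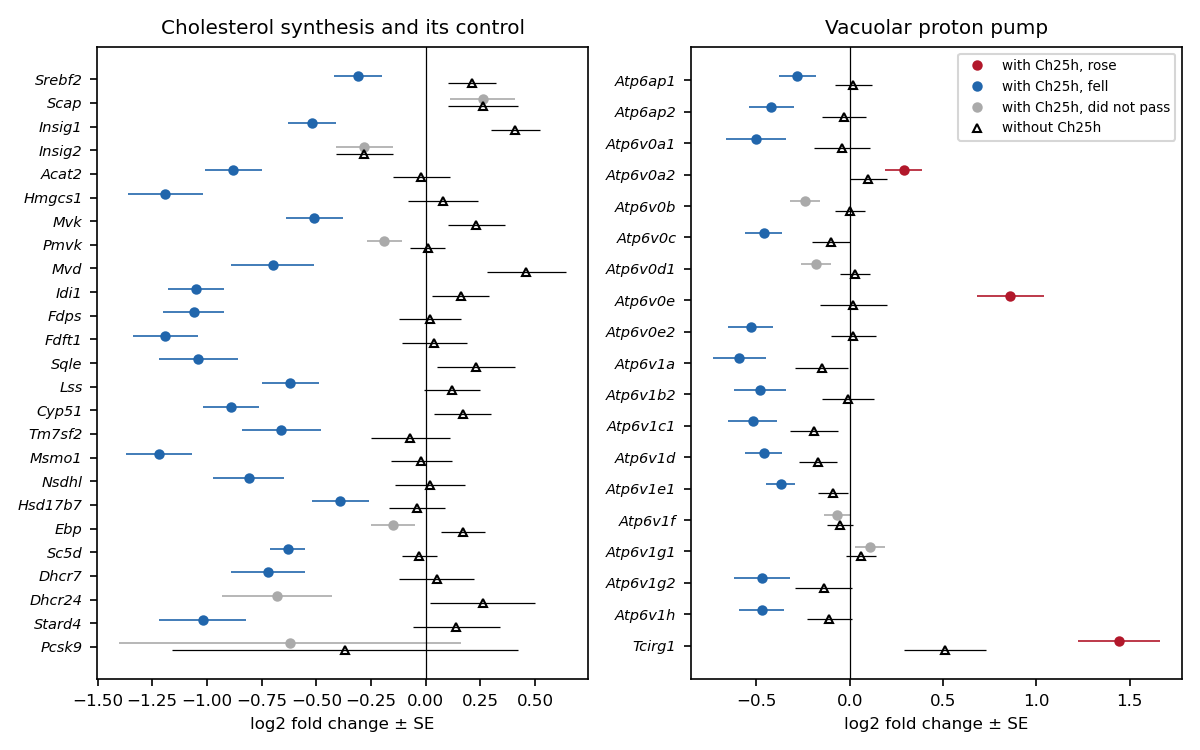
The horizontal axes give the log2 fold change ± SE of tested genes of the cholesterol list (left) and the proton pump list (right, with Atp6v0d2 left out because it was near 0 in the wild-type libraries), for tau transgenic against wild-type libraries (circles, coloured by call) and for transgenic knockout against knockout libraries (triangles). Hmgcs1 lies at -1.19 with Ch25h and at 0.08 without it, and the pump subunits go both ways with Ch25h.

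Cholesterol synthesis genes fell across the pathway: 21 of 27 tested fell (11.2% of all genes fell) and 0 rose, with a median of -0.70. Hmgcs1, the enzyme that makes HMG-CoA, was at 350, 233, 244 and 323 CPM in the wild-type libraries and at 100, 130, 113 and 161 CPM in the transgenic ones (-1.19 ± 0.17, adjusted p = 7.68e-05). Msmo1, a sterol demethylase, was at 198, 133, 147 and 199 CPM and at 63.0, 67.1, 66.4 and 92.9 CPM (-1.22 ± 0.15, adjusted p = 1.66e-05). Sc5d, a late desaturase, was at 126, 119, 123 and 138 CPM and at 79.2, 80.3, 79.2 and 87.8 CPM (-0.63 ± 0.08, adjusted p = 2.90e-05). The groups did not overlap for any of the 21, and wild-type replicates 1 and 5 held higher values than replicates 2 and 4 for 17 of them.

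Fdft1, which makes squalene and was picked after its values were seen, fell by 1.19 ± 0.15, from 155 ± 31.2 to 67.9 ± 13.7 CPM. Srebf2, which encodes SREBP2, was at 75.1 ± 3.24 and 60.5 ± 7.70 CPM (-0.31 ± 0.11, adjusted p = 0.0451), a call that did not hold under 18 of 26 alternatives. Leaving out 1 library at a time, between 19 and 22 members fell, and 15 fell without both choroid-rich libraries. Myelin markers summed to 5810 and 4150 CPM in wild-type replicates 1 and 5, to 15400 and 17900 CPM in wild-type replicates 2 and 4, and to 12100 to 26500 CPM in the transgenic libraries, and their part in these falls was not tested.

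The Hmgcs1 promoter window is shown for its match to the core of the sterol regulatory element, searched as TCACNCCAC on both strands, with the match in capitals (RefSeq, GRCm38.p6). It was the only one of 19 genes of the list with a promoter in the table that held these letters, which occur in 1.24% of all promoters.
Hmgcs1, chr13:119690154-119690282, plus strand: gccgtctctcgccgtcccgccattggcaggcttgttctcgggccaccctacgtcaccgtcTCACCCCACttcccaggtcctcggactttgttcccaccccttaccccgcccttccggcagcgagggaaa

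Sterol efflux and lipoprotein genes moved the other way: 13 of 20 tested rose and 0 fell, with a median of 0.69. Abca1, the pump that loads cholesterol onto apolipoproteins, was at 15, 16.8, 16.5 and 12.6 CPM in the wild-type libraries and at 122, 89.9, 76.0 and 41.9 CPM in the transgenic ones (2.44 ± 0.25, adjusted p = 4.07e-06), highest in replicate 2 and lowest in replicate 5. Apoe, the main apolipoprotein of the brain, was at 2170, 2380, 2330 and 2480 CPM and at 11700, 7080, 7890 and 6230 CPM (1.81 ± 0.18, adjusted p = 4.09e-06), with the same libraries highest and lowest. Npc2, which hands cholesterol out of the lysosome, rose by 1.45 ± 0.14 from 107 ± 13.8 CPM, while the efflux pump Abcg1 was at 262 ± 50.5 and 352 ± 73.2 CPM with overlapping groups (0.42 ± 0.15, adjusted p = 0.0566). Of 25 tested genes of lipid droplets and fatty acids 9 rose and 3 fell. The falls were near the share of all genes (11.2%) and numbered 0 without transgenic replicate 2, 3 or 4. The droplet coat gene Plin2 was at 11.4 ± 1.22 and 32.0 ± 4.17 CPM (1.49 ± 0.16), and Soat1, which esterifies cholesterol, at 48.3 ± 4.40 and 78.0 ± 7.10 CPM (0.69 ± 0.12). Among iron genes the heme oxygenase Hmox1 rose by 2.02 ± 0.18 and the ferritin light chain Ftl1 by 1.18 ± 0.12. In all, 9 of 21 iron genes rose and 2 fell, the falls again near the share of all genes. Both falls were lost without transgenic replicate 2 or 3 or without wild-type replicate 2 or 5.

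Reactive astrocyte genes were strongly higher: 21 of 27 tested rose and 1 fell, with a median of 2.73. Gfap, the intermediate filament of reactive astrocytes, was at 484, 797, 785 and 505 CPM in the wild-type libraries and at 6330, 4900, 8250 and 6650 CPM in the transgenic ones (3.35 ± 0.34, adjusted p = 4.33e-06). Vim, another filament, was at 25.4, 56.0, 53.9 and 29.3 CPM and at 779, 630, 603 and 226 CPM (3.76 ± 0.36), lowest in transgenic replicate 5. Osmr, the oncostatin M receptor, was at 4.56 ± 1.01 and 67.6 ± 14.1 CPM (3.89 ± 0.47). The single fall was of Amigo2, an adhesion molecule that is also a marker of CA2 neurons, at 11.2 ± 1.49 and 5.38 ± 0.55 CPM (-1.06 ± 0.18, adjusted p = 0.000415).

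Transport and metabolic genes of astrocytes moved less, with 8 of 24 tested higher, 1 lower and a median of 0.23. The water channel Aqp4 was at 217, 265, 275 and 187 CPM and at 1010, 833, 849 and 607 CPM (1.80 ± 0.22). The glutamate transporter Slc1a2 was at 1600 ± 54.4 and 1870 ± 124 CPM (0.22 ± 0.08, adjusted p = 0.0515), and glutamine synthetase, Glul, at 633 ± 71.9 and 520 ± 64.5 CPM with overlapping groups (-0.28 ± 0.11, adjusted p = 0.0715). The list's single fall was of Mfge8, a bridging protein for phagocytosis that astrocytes secrete: it was at 485, 396, 339 and 571 CPM in the wild-type libraries and at 135, 189, 162 and 213 CPM in the transgenic ones (-1.36 ± 0.19, adjusted p = 9.29e-05). Of 35 matrix genes and proteases 12 rose and 0 fell, among them the macrophage elastase Mmp12 (7.02 ± 0.76) and the gelatinase Mmp2 (2.11 ± 0.29).

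Stress and growth-arrest genes rose in part. Of 18 tested p53 targets 10 rose and 0 fell (median 0.49), 6 of them with the 8 libraries fitted alone and the replicate block. Cdkn1a, the cell cycle inhibitor p21, was at 7.62, 10.3, 8.10 and 10 CPM in the wild-type libraries and at 60.4, 46.1, 38.3 and 22 CPM in the transgenic ones (2.21 ± 0.31, adjusted p = 8.79e-05). Phlda3, an inhibitor of Akt signalling, was at 5.41 ± 1.64 and 30 ± 12.2 CPM (2.47 ± 0.33). For both, transgenic replicate 2 was highest and replicate 5 lowest. Of 19 genes of the integrated stress response 7 rose (4 with the replicate block in the 8 libraries) and 2 fell (1 under 20 of the 26 alternatives, and 11.2% of all genes fell): the stress factor Atf3 rose by 3.13 ± 0.45 to 12.7 ± 2.85 CPM, whereas asparagine synthetase, Asns, fell by 0.69 ± 0.15 from 267 ± 13.8 CPM. Of 25 proliferation genes 10 rose, 6 without transgenic replicate 2 and 5 in the 8 libraries with the block. The single fall was of the cyclin Ccnd2 (-0.39 ± 0.12, adjusted p = 0.0244), a call lost under 11 of the alternatives. Cdk1, the mitotic kinase, was at 0.483 ± 0.185 and 2.96 ± 0.771 CPM (2.60 ± 0.47).

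Kinases and phosphatases that act on tau, and microtubule proteins, moved little. Of 31 tested 1 rose and 7 fell (median -0.21), and the falls numbered 2 without transgenic replicate 2 or 3 or wild-type replicate 5, 3 without transgenic replicate 4, and 1 without both choroid-rich libraries. The rise was of Fyn, a tyrosine kinase, at 45, 51.2, 51.1 and 53.1 CPM in the wild-type and 77.8, 76.5, 59.7 and 61.8 CPM in the transgenic libraries (0.46 ± 0.11, adjusted p = 0.0066, or 0.0882 in the 8 libraries with the replicate block). Map1b, a microtubule-associated protein, was at 2710 ± 276 and 1840 ± 264 CPM (-0.56 ± 0.14, adjusted p = 0.00754, or 0.0787 without both choroid-rich libraries). The kinase Gsk3b was at 548 ± 43.7 and 473 ± 59.4 CPM with overlapping groups (-0.21 ± 0.12, adjusted p = 0.202). Of 26 heat shock proteins and chaperones 4 rose and 4 fell, near the shares of all genes (13% and 11.2%), and the falls numbered 1 without transgenic replicate 3, without wild-type replicate 5 or without both choroid-rich libraries. The co-chaperone Bag3 was at 5.10, 7.44, 7.27 and 6.74 CPM in the wild-type and 24.2, 14.3, 16.5 and 14.9 CPM in the transgenic libraries (1.39 ± 0.19, adjusted p = 6.68e-05), with no overlap. Its partner, the small heat shock protein Hspb8, rose by 0.80 ± 0.16.

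The 10 largest falls were chosen by the same rule, so their groups do not overlap. Lzts1, a postsynaptic density protein, was at 364, 644, 291 and 373 CPM in the wild-type libraries and at 65.6, 153, 153 and 206 CPM in the transgenic ones (-1.54 ± 0.35, adjusted p = 0.0046). In the 8 libraries with the replicate block its adjusted p was 0.0644. Pcdh20, a protocadherin, was at 167, 194, 219 and 202 CPM and at 38.6, 56.9, 96.1 and 113 CPM (-1.36 ± 0.26, adjusted p = 0.00122). Kcng1, a silent potassium channel subunit, was at 25.0, 13, 13.2 and 39.5 CPM and at 5.09, 9.38, 7.26 and 7.65 CPM (-1.63 ± 0.40, adjusted p = 0.00733). Camk1g and Pnck, which encode calmodulin-dependent kinases, fell by 1.24 ± 0.23 and 1.37 ± 0.28. Htr2a, a serotonin receptor, fell by 1.27 ± 0.29, Lypd1, a nicotinic receptor modulator, by 1.27 ± 0.22 and Grhl1, a transcription factor, by 1.26 ± 0.24. Spry3, a regulator of receptor tyrosine kinase signalling that the annotation places on an unplaced scaffold, fell by 1.31 ± 0.19, and Mfge8 (above) completed the set.

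**Figure D4:**
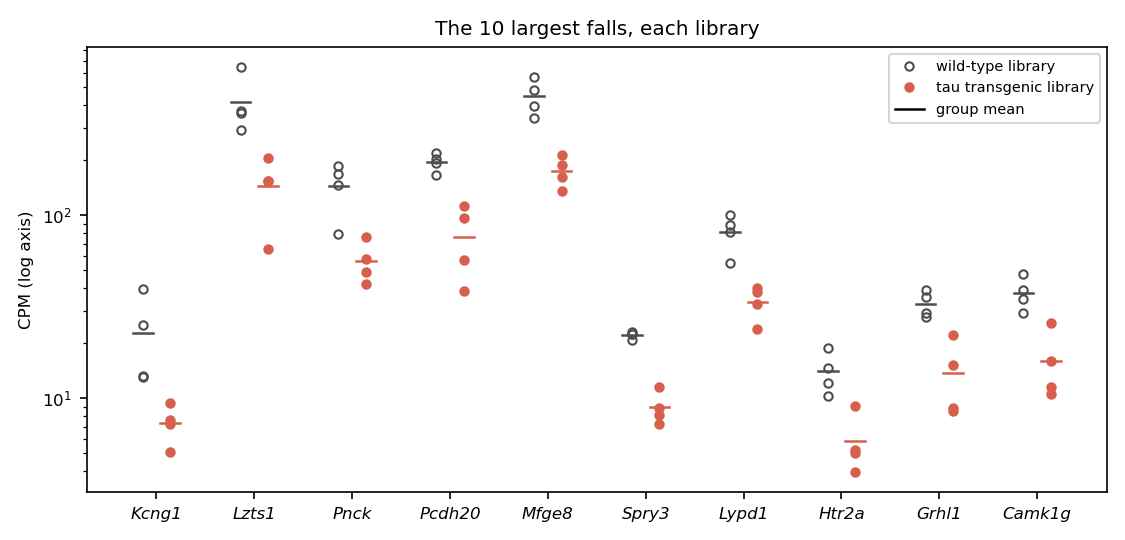
Each column is 1 of the 10 largest falls and each point the CPM of 1 library on a log axis, with open symbols for wild-type and filled symbols for tau transgenic libraries and a line at each group mean. The rule that chose the genes required groups without overlap, and transgenic levels are lowest for Htr2a, at 3.95 to 9.12 CPM.

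Neuronal lists moved by little beside these, and their calls were mostly falls. They were 9 lists of receptors, channels, vesicle genes, neuropeptides and pyramidal neuron markers, with 191 distinct tested genes. Of these 36 fell and 2 rose, with a median of -0.25, where 11.2% of all genes fell and 13% rose. That count of falls moved with the libraries fitted, as did the share of all genes that fell. Without transgenic replicate 2, 15 fell (6.17% of all genes), and without transgenic replicate 4, 21 (8.89%). Without wild-type replicate 5, 22 fell (7.35%), and without both choroid-rich libraries 16 (4.72%). It was higher in other settings: 46 without transgenic replicate 5 (13.2%), 42 with DESeq2 (12.1%) and 38 in the 8 libraries with the replicate block (4.79%). Gria2, the AMPA receptor subunit that limits calcium entry, was at 923, 1030, 928 and 990 CPM in the wild-type libraries and at 332, 496, 532 and 680 CPM in the transgenic ones (-0.93 ± 0.15, adjusted p = 0.000432). Gria1, another AMPA subunit, fell by 0.65 ± 0.16. Scn2a, a sodium channel of the axon initial segment, was at 286, 248, 257 and 322 CPM and at 113, 189, 140 and 188 CPM (-0.82 ± 0.14, adjusted p = 0.000456), and Scn3a fell by 0.87 ± 0.16. The obligatory NMDA subunit Grin1 was at 63.1 ± 6.98 and 59.1 ± 8.64 CPM, with overlapping groups (-0.09 ± 0.14, adjusted p = 0.676). Transgenic replicate 4 had the lowest mean level in 7 of the 9 lists.

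The opposite direction was rare among neuronal genes. Scg3, a granin-binding protein of secretory granules, was at 198, 209, 219 and 241 CPM in the wild-type libraries and at 438, 405, 325 and 351 CPM in the transgenic ones (0.81 ± 0.10, adjusted p = 3.02e-05). Markers of the hippocampal fields moved in few cases, against 11.2% of all genes that fell: 0 of 9 CA1 markers, 3 of 12 CA2 and CA3 markers and 1 of 14 dentate granule markers fell. The CA2 and CA3 falls numbered 1 without transgenic replicate 2, 3 or 4, without wild-type replicate 2 or with the replicate block. The granule marker Glis3, a transcription factor, was at 3.29 ± 0.588 and 7.97 ± 1.31 CPM and rose by 1.27 ± 0.22. The granule marker that fell was the calcium buffer Calb1, at 213, 185, 199 and 251 CPM and at 99.6, 108, 152 and 181 CPM (-0.65 ± 0.17, adjusted p = 0.00934). Of 13 tested markers of adult neurogenesis 3 rose (Sox4, Hopx and Nes, by 0.51 ± 0.16, 0.63 ± 0.21 and 1.23 ± 0.33) and 1 fell. The rises numbered 1 without transgenic replicate 2 or 3 or wild-type replicate 1 or 5, and 0 in the 8 libraries with the replicate block. The fall was of Neurod1, a factor of newborn granule neurons, at 36.2 ± 6.35 and 19 ± 5.61 CPM (-0.93 ± 0.24, adjusted p = 0.00982). Calb1 and Neurod1 were lower in every transgenic library than in any wild-type one.

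Nuclear-encoded respiratory chain genes fell slightly and together. Of 36 members 24 fell and 0 rose, with a median of -0.29. Of the 13 mitochondrially encoded protein genes 2 fell (mt-Nd4l and mt-Atp8), near the share of all genes (11.2%), with a median of -0.13. That count was 1 without transgenic replicate 3 and 0 in the 8 libraries with the replicate block. The mitochondrial tRNA genes, which are not in that list, fell more often: of 16 tested 11 fell (68.8%) and 0 rose. Ndufv1, a core subunit of complex I, was at 354, 335, 330 and 357 CPM in the wild-type libraries and at 232, 242, 268 and 271 CPM in the transgenic ones (-0.44 ± 0.08, adjusted p = 0.00057). Atp5a1, of the ATP synthase, was at 1020 ± 61.2 and 723 ± 77.6 CPM (-0.50 ± 0.09, adjusted p = 0.000576). The number of falls among nuclear-encoded members was 3 without transgenic replicate 3, 15 without wild-type replicate 5, 7 without both choroid-rich libraries and 2 in the 8 libraries with the replicate block. Neuronal markers were lower in the same transgenic libraries, and their part in these falls was not tested.

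Myelin genes were not apart by genotype. Of 16 tested oligodendrocyte markers 9 rose and 0 fell (median 1.02), but the groups overlapped for all 16, and 3 rose without transgenic replicate 2, 4 without wild-type replicate 1, 5 without transgenic replicate 3 or wild-type replicate 5, and 2 without both choroid-rich libraries. Sox10, the factor of the oligodendrocyte lineage, was at 7.78, 16.1, 12.3 and 7.06 CPM in the wild-type libraries and at 45.8, 27.2, 20.5 and 14.8 CPM in the transgenic ones (1.32 ± 0.32, adjusted p = 0.00672), with transgenic replicate 5 below wild-type replicate 2. Mbp, the myelin basic protein gene, was at 1800 to 8180 CPM and 5630 to 13000 CPM (1.00 ± 0.38, adjusted p = 0.0636). Tcf7l2, a marker of thalamus that differentiating oligodendrocytes also express, was at 21.3 ± 0.882 CPM in the wild-type libraries and at 125, 28.4, 54.1 and 27.2 CPM in the transgenic ones (1.46 ± 0.37, adjusted p = 0.00931). The summed thalamus, striatum and cortex list reached 645 CPM in transgenic replicate 2, against 227 to 335 CPM in the other 7 libraries. None of the 14 choroid plexus markers passed the test. Of 12 oligodendrocyte precursor markers 4 rose and 0 fell, but 2 rose without transgenic replicate 2 and 0 in the 8 libraries with the replicate block. Of 15 endothelium and pericyte markers 3 rose and 0 fell, near the share of all genes that rose (13%). The rises numbered 1 without transgenic replicate 2 or in the 8 libraries with the block. Flt1, a receptor for vascular endothelial growth factor, was at 16.1, 16.7, 17 and 21.3 CPM in the wild-type and 43.5, 34.7, 27.6 and 21.7 CPM in the transgenic libraries (0.84 ± 0.20, adjusted p = 0.00566, or 0.0965 in the 8 libraries with the replicate block). Among 14 interneuron markers, where 11.2% of all genes fell, the single fall was of somatostatin, Sst (-0.81 ± 0.22, adjusted p = 0.0132, or 0.0575 without wild-type replicate 5). Of 19 immediate early genes, which follow neuronal activity, 3 rose and 2 fell, near the shares of all genes (13% and 11.2%), and the rises numbered 0 without transgenic replicate 2 or 3 or without wild-type replicate 1, 2 or 5, as did the falls without transgenic replicate 3 or 4 or wild-type replicate 4.

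The deposited TPM values, which scale reads by transcript length and library total, show which transcripts took up the most of the changed RNA among genes that passed. Apoe was at 3630, 3910, 3810 and 4060 TPM in the wild-type libraries and at 19300, 13000, 12700 and 10500 TPM in the transgenic ones, 0.385% and 1.39% of all TPM on average. Cst3, which encodes cystatin C, was at 5870 ± 1080 and 10900 ± 597 TPM, and Gfap at 328 ± 84.2 and 3350 ± 551 TPM. The metallothionein Mt1 (1930 ± 115 and 4090 ± 921 TPM), the chaperone clusterin, Clu (1510 ± 115 and 3310 ± 180 TPM), and the peroxiredoxin Prdx6 (1010 ± 126 and 2800 ± 345 TPM) came next. The groups did not overlap for these 6 genes. The opposite end held transcripts of neurons and glycolysis: the aldolase Aldoa was at 4140 ± 538 and 2790 ± 381 TPM, and Snrpn, a splicing factor of neurons, at 1750 ± 17 and 1200 ± 167 TPM.

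The tau effect with Ch25h differed from the tau effect without it for 584 genes (3.15%) by the interaction term in edgeR, 455 of them with a higher and 129 with a lower value when Ch25h was intact. At an unadjusted p under 0.05 there were 3486. The count moved with single libraries: it was 1266 without transgenic replicate 5, 298 and 334 without transgenic replicates 2 and 3, and 334 without wild-type replicate 5. Without knockout replicates 1, 2 and 4 it was 375, 349 and 308, and without transgenic knockout replicate 5 it was 351. In the fit with DESeq2 it was 1250, and without both choroid-rich libraries 378.

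The cholesterol list held the highest number of such genes, 16 of 27 members. Hmgcs1 fell by 1.19 with Ch25h intact and was at 0.08 in the transgenic knockout against knockout libraries (difference -1.27 ± 0.23, adjusted p = 0.00717). For Abca1, of the efflux list, the values were 2.44 and 0.15 (difference 2.28 ± 0.34, adjusted p = 0.0034). The median of the cholesterol list was -0.70 with and 0.08 without Ch25h. Among glial genes, Mfge8 was at -1.36 and 0.17 (difference -1.53 ± 0.27, adjusted p = 0.00617) and C1qa at 3.71 and 1.26 (difference 2.45 ± 0.26, adjusted p = 0.000269). Irf8 was at 3.64 and 0.97 (difference 2.68 ± 0.30, adjusted p = 0.000319).

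Immune lists held most of the other high counts. The MHC class I list had 13 of 23 members, Fc receptors 13 of 19 and the interferon-inducible GTPases 11 of 19. The interferon regulatory factor, STAT and SOCS list had 11 of 25, whereas the T cell list and the myelin list had 0. The median of the GTPases was 2.22 with and 0.27 without Ch25h, that of the T cell markers 3.02 and 0.96, and that of the myelin markers 1.02 in both. No T cell gene passed the test of the difference: for Cd3e, whose direction runs against its list, the values were 2.66 and 4.21 (difference -1.55 ± 1.31, adjusted p = 0.568).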

How the data were processed

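RNA-seq of 16 hippocampal libraries was analysed from a deposited table of estimated counts and TPM per gene, both made by the authors. Its 55774 lines hold 55487 genes and 287 repeated lines, which were dropped. Of the deposited estimated counts above 0, 74.53% were whole, and all were rounded. Per the submitters' processing notes, bcl2fastq, STAR 2.5.1a, featureCounts 1.4.6-p5 of Subread and GRCm38 were used. Which of them made the estimated counts, with which annotation and whether by strand, was not given in the sources used here. Coordinates are those of GENCODE on GRCm38.

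Counts were tested with edgeR 4.0.16 (R 4.3.3; TMM scaling, filterByExpr, glmQLFit and glmQLFTest, 1 fit of the 4 genotype groups over 16 libraries), with Benjamini-Hochberg adjustment over the 18565 genes tested and a threshold of 0.05. Standard errors are the absolute log2 fold change divided by the square root of F. Values are TMM-scaled CPM, given as mean ± SD. The interaction is the tau effect with Ch25h minus that without it. The script was tested on simulated data. Alternatives were DESeq2 1.42.0, limma-voom (limma 3.58.1), other scalings and filters, the 8 libraries alone, the replicate block, and leaving out single libraries or both choroid-rich ones.

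The naming rule took the targeted gene and both genes tied to the transgene, then the 10 largest log2 changes in each direction among called genes with at least 10 CPM in the higher group and no overlap (unnamed models, pseudogenes, ribosomal and mitochondrial genes left out), and the 2 members with the smallest p of each of 50 gene lists. Others were picked after their values were seen. Some genes are not reported here. The libraries, lists and members were chosen with earlier results of these data known. Of 1018 entries in the lists, 26 did not pass the filter on low counts. Lists with a gene of no wild-type read (Ctse, Apoc4) had the same median with that gene at its bound, 1.34 and 0.69. Counting intervals are 95% and, like the floor of 3 reads, cover counting error only.

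Replicate numbers 2, 4 and 5 occur in both groups. Same-numbered libraries deviated together only weakly from their group means (r across genes of 0.12, 0.14 and 0.30). Wild-type replicate 2 correlated best with transgenic replicate 4, not with its own number. Transgenic replicate 2 did correlate best with wild-type replicate 2, and for replicates 4 and 5 the same number was the best match in both directions. The numbers were taken as pairs in the replicate block, although no label says what they share. Wild-type replicate 1 and transgenic replicate 3 have no partner, so the block fit of the 8 libraries alone compares only replicates 2, 4 and 5. No 2 libraries agreed within sampling noise.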

Additional observations from a re-analysis of the deposited data

Results flagged for a closer look

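Of 238 groups of 4 libraries examined (named genes and both genotypes), 18 had 1 library far from the other 3, where chance flags about 1 in 20. Transgenic replicate 2 was the high one for Itgax (39.8 CPM), C1qa (426 CPM), C1qc (281 CPM) and Pycard (39.2 CPM). Transgenic replicate 4 was low for Irgm1 (83.3 CPM) and high for Casp4 (5.34 CPM), and transgenic replicate 5 was high for Msmo1 (92.9 CPM), Sc5d (87.8 CPM) and Gabrb2 (53.7 CPM) and low for Atf3 (8.49 CPM). Among the wild-type libraries, replicate 2 stood apart for Hcar2 (0.474 CPM) and Atp6v0d2 (0.0297 CPM), replicate 1 for Soat1 (54.9 CPM) and replicate 4 for Adamts1 (13.1 CPM). The choroid plexus genes Clic6 (22 and 38.4 CPM) and Kcne2 (46.0 and 77.5 CPM) stood apart in wild-type replicate 1 and transgenic replicate 4.

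The tau effect with and without Ch25h differed by the interaction term for 584 genes. Among the largest rises and falls, the difference on the log2 scale was 3.09 for Ccl2, 3.25 for Cd22, -2.34 for Lzts1, -1.60 for Pnck, -1.53 for Mfge8, -1.06 for Spry3 and -1.39 for Lypd1. Lists with at least 10 such genes included cholesterol synthesis (16), MHC class I presentation (13), Fc receptors (13) and interferon-inducible GTPases (11). The others were interferon regulatory factors, STATs and SOCS (11) and growth factors, receptors and transcription factors of microglia (10).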

How the results depend on the processing

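The rises kept within 1.5 times of their count under every alternative, and the falls did not. The total of 4490 calls was 3671 with the 8 libraries alone, 2693 with the 8 libraries and the replicate block, 2696 without both choroid-rich libraries, and 2934 to 5128 without single libraries. The 2073 falls became 1380 with the 8 libraries alone, 850 with the block added, 882 without the choroid-rich libraries, 1254 with no filter on low counts, and 1162 to 2483 without single libraries. The 2417 rises ranged from 1772 to 2700 without single libraries. The 584 genes of the interaction became 1250 with DESeq2, 378 without the choroid-rich libraries and 298 to 1266 without single libraries. With the replicate block over the 16 libraries there were 3411 calls, 1949 higher and 1462 lower, and 683 in the interaction. Of 3686 values of named genes under alternatives, 3539 kept direction and call, 141 lost and 6 gained the call, and 0 reversed. Of 1664 list counts, 292 moved by over 1.5 times. The causes were not tested, apart from the fewer samples that an alternative itself brings. T cell and other genes near 1 CPM are limited by depth.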

Other observations

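Among the genes that rose at least 8-fold with the transgene, 9 did so both with Ch25h intact and in its absence, the 2 comparisons having separate control libraries. They were Pdcd1, Ccl4, Cst7, Clec7a, Itgax, Mmp12, Gbp2b, 4930590L14Rik and Lamr1-ps1. Clec7a, which encodes the fungal receptor Dectin-1, rose by 7.47 ± 0.73 with Ch25h and by 5.04 without it. The noncoding gene 4930590L14Rik had 0 reads in the wild-type libraries and 19, 11, 6 and 31 in the transgenic ones (at least 22.6-fold higher). It lies 1.64 Mb before Gbp2b on chromosome 3. Both had 0 reads in every library without the transgene and reads in every library with it. The cause of this shared pattern was not tested. The pseudogene Lamr1-ps1, which lies 4.97 kb before Prnp, had 2 reads in the wild-type libraries and 21, 22, 15 and 18 in the transgenic ones (ratio 38.4, counting interval 10.3 to 323).

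Falls were unevenly spread over the chromosomes. On the X chromosome 121 of 622 tested genes fell (19.5%, against 11.2% of all), and the share was 12.6% against 6.17% without transgenic replicate 2 and 8.97% against 4.72% without both choroid-rich libraries. Among windows of 5 Mb with at least 20 tested genes, the one from 135 to 140 Mb of the X chromosome, chosen because it held the highest share of falls (44.4%), had 16 of 36 tested genes lower and 0 higher. It holds the Bex genes, small proteins of neurons: Bex1 fell by 0.73 ± 0.16 and Bex2 by 0.65 ± 0.12 (adjusted p = 0.00287 and 0.0007, edgeR), while Tceal6 and Tceal8 beside them were at -0.14 ± 0.18 and -0.11 ± 0.10 and did not pass. The falls in this window differed in stability. Of 26 alternatives, 19 changed the call of 3632454L22Rik, 17 that of Slc25a53 and 12 that of Rab9b. At most 7 changed the call of any other fall there, and 0 that of Bex1 or Bex2.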
